A study of Homo sapiens with 5 samples.

Results

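Genes that mark the epithelial or the mesenchymal state of a cell were followed in ribosome footprints of HAP1 cells. The members are 10 genes, VIM, ESRP1, ZEB1, ZEB2, EPCAM, CLDN1, CLDN7, KRT8, KRT18 and POF1B, of which 9 had a row among the 14084 rows of the count table, and KRT8 was not analysed here. They were chosen by symbol with the difference between knockout and wild-type footprint counts in view, so that difference is described here with no test and supports nothing further. All 9 passed the filter on low counts. For a symbol with several rows, the row with the most counts was taken.

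HAP1 is an established near-haploid human cell line that grows attached to the dish and was derived from KBM-7, a line from a chronic myeloid leukaemia. The study compared wild-type HAP1 cells (2 libraries) with HAP1 cells labelled METTL18 knockout (3 libraries). METTL18 is an enzyme that methylates a histidine of the ribosomal protein RPL3. No treatment or time is given for either group, and the labels do not say how many knockout clones were used or whether libraries came from separate cultures. Group and clone therefore cannot be told apart, and the spread behind the p-values is that of the libraries at hand and may be technical.

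Epithelial cells hold on to their neighbours through tight junctions, adherens junctions and desmosomes, and their cytoplasm is braced by keratin filaments, each built from a type I and a type II keratin. Mesenchymal cells use vimentin filaments in their place. In the change between these states, called epithelial-mesenchymal transition (EMT), the zinc finger repressors ZEB1 and ZEB2 bind E-box sequences and shut off junction genes, while ESRP1 and ESRP2 direct the splicing pattern of epithelial cells.

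A footprint is a piece of mRNA of 28 to 32 bases that a ribosome protected from nuclease, and its count reflects both mRNA amount and ribosomes per mRNA, which were not separated. The labels name the sequenced molecule as polyA RNA, although their protocol describes the isolation of footprints; the counts are read here as footprint counts on the strength of that protocol. Totals were 4887380 and 5302160 counts for wild type and 16339574 to 17629199 for the knockout, so the knockout libraries held 3.33-fold more counts on average. Depth here means these counts and not reads sequenced. METTL18 itself stood at 5.71 ± 0.211 CPM (counts scaled to a common library size; SD, n = 2) in wild-type cells and 2.10 ± 0.117 CPM (SD, n = 3) in the knockout. Its log2 fold change was -1.44, with an SE of 0.247 and an adjusted p = 2e-06 by the edgeR quasi-likelihood test. All CPM values are scaled by TMM factors, which correct for the make-up of each library. Of 11335 genes tested, 37.8% were called higher and 36.6% lower in the knockout at an adjusted p under 0.05, and the groups did not overlap at 83.5%. With total counts as the scale, the median log2 fold change of all genes moved from 0.0161 to -0.255 and the calls from 4288 higher and 4143 lower to 2982 higher and 5597 lower. Of 18 blood cell markers, 8 had a row, and the levels of those without a row are not known. CD33 was at 0 in all libraries, and CD34 had 4 counts in wild-type cells and 0 in the knockout. The summed level of the markers with a row was 23.4 to 26.3 CPM in wild-type cells and 54.6 to 64.3 CPM in the knockout. Of this sum GATA2 gave 15.5 ± 0.539 CPM (SD, n = 2) and 56.8 ± 5.07 CPM (SD, n = 3). GATA2 was called higher, and the 1 other blood cell marker with enough counts to be tested was called lower. Of 9 fibroblast markers, 6 had a row, none of them at 0 in every library, with a sum of 53.9 to 54.7 CPM against 66.8 to 70.7 CPM. The part of either marker list in the results was not tested.

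The members, chosen on this contrast, are described with no test, and both epithelial and mesenchymal ones stood higher or lower in the knockout. The mesenchymal filament VIM was 8.28-fold higher in the knockout, and so was the epithelial claudin CLDN7, by 25.5-fold. The epithelial genes CLDN1, POF1B and ESRP1 were 34.7-fold, 31.9-fold and 5.58-fold lower, and the repressor ZEB2 was 1.96-fold lower. ZEB1, EPCAM and KRT18 differed by at most 1.20-fold, and their direction depended on the scaling. The groups did not overlap for 7 of the 9 members, beside 83.5% of all genes, and nothing is read from that count because the members were chosen on this contrast.

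**Figure D1:**
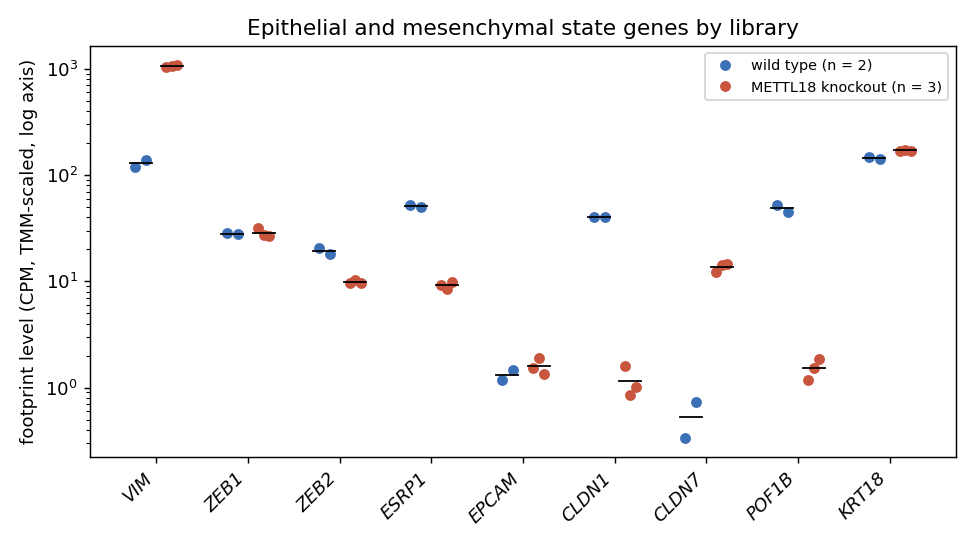
Footprint level of the 9 members in each library, in TMM-scaled CPM on a log axis. Points are libraries, blue for wild type (n = 2) and red for METTL18 knockout (n = 3), and black lines are group means. VIM and CLDN7 are higher in every knockout library, CLDN1, POF1B, ESRP1 and ZEB2 are lower, and the points of ZEB1 and EPCAM overlap.

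ZEB1 (transcript ENST00000320985, hg38 chromosome 10, 31319125 to 31529202, plus strand), a repressor of E-cadherin and other junction genes, held 168 and 151 counts in wild-type cells and 482, 445 and 424 in the knockout. These were 28.3 and 27.6 CPM against 31.8, 27.3 and 26.9 CPM. The wild-type values lay inside the knockout range. The log2 ratio of knockout to wild type was 0.04, with a 95% counting interval of the ratio from 0.905 to 1.16. It turned to -0.23 with total counts as the scale and to -0.05 without METTL18 knockout replicate 1, the highest of the libraries.

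ZEB2 (ENST00000627532, chromosome 2, 144384081 to 144520395, minus strand), its paralog, held 123 and 98 counts in wild-type cells and 146, 167 and 152 in the knockout. Both wild-type libraries, at 20.7 and 17.9 CPM, were above all knockout libraries, at 9.64, 10.3 and 9.64 CPM. The wild type was 1.97-fold higher by summed counts (95% counting interval 1.67 to 2.31). Footprints per kilobase of coding sequence compare levels between genes of different length. On that scale ZEB1 exceeded ZEB2 by 1.57 ± 0.134-fold in wild-type cells (SD, n = 2) and by 3.15 ± 0.364-fold in the knockout (SD, n = 3).

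ESRP1 (ENST00000433389, chromosome 8, 94641136 to 94707466, plus strand), the epithelial splicing regulator, held 309 and 275 counts in wild-type cells and 139, 137 and 156 in the deeper knockout libraries. Its levels were 52.0 and 50.3 CPM against 9.18, 8.42 and 9.90 CPM. Every knockout library was far below both wild-type ones, by 5.59-fold over summed counts (95% counting interval 4.93 to 6.35). Its paralog ESRP2 had 0 counts in wild-type cells and 3, 2 and 1 in the knockout, too few to be tested. Per kilobase, ESRP1 stood at 3.02 ± 0.0211 times ZEB1 in wild-type cells (SD, n = 2) and at 0.530 ± 0.0684 times ZEB1 in the knockout (SD, n = 3), so the order of this pair differed between the groups. The wild-type SD is smaller than counting alone would give (5.85% for ESRP1 and 7.92% for ZEB1 per library), so it understates the uncertainty.

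EPCAM (ENST00000263735, chromosome 2, 47369148 to 47387034, plus strand), the epithelial cell adhesion molecule, was near the bottom in all 5 libraries. It held 7 and 8 counts in wild-type cells and 23, 31 and 21 in the knockout, or 1.18 and 1.46 CPM against 1.52, 1.90 and 1.33 CPM. The groups overlapped. The 95% counting interval of the ratio ran from 0.688 to 2.27, so no difference was detectable at this depth, and with total counts the log2 ratio of 0.26 became -0.01.

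CLDN1 (ENST00000295522, chromosome 3, 190305701 to 190322475, minus strand), a sealing claudin of tight junctions, held 237 and 220 counts in wild-type cells and 24, 14 and 16 in the knockout. Its levels were 39.9 and 40.2 CPM against 1.58, 0.860 and 1.02 CPM. The wild-type libraries nearly coincided, and the knockout ones were all low. CLDN7 (ENST00000397317, chromosome 17, 7260137 to 7263213, minus strand), a claudin that also binds EPCAM on the sides of epithelial cells, showed the opposite order. It held 2 and 4 counts in wild-type cells and 184, 231 and 228 in the knockout, or 0.337 and 0.732 CPM against 12.2, 14.2 and 14.5 CPM. With 6 wild-type counts in all, its ratio of 25.9 has a wide 95% counting interval, 11.8 to 70.9.

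Shares of the claudin family are given as a description, with no test, since CLDN1 and CLDN7 weigh most in them and were chosen on this contrast. Of 12 claudin genes with a row, 2 had no count. Claudins without a row are not in these shares, and their levels are not known. CLDN1 took 65.8% and 65.2% of the summed claudin level per kilobase in wild-type cells and 3.94%, 1.99% and 2.32% in the knockout. CLDN7 took 0.555% and 1.19% in wild-type cells and 30.2%, 32.8% and 33.1% in the knockout. The summed level itself was 96.7 ± 1.21 CPM per kilobase in wild-type cells (SD, n = 2), against 67.0 ± 2.98 for knockout libraries (SD, n = 3).

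The other claudins were not members, and of these CLDN3, CLDN9, CLDN11 and CLDN12 had enough counts to be tested. CLDN9 had 0 counts in wild-type cells and 92, 101 and 108 in the knockout, at least 24.2-fold higher when the wild-type sum is set to 3 counts (adjusted p = 3.12e-13, edgeR quasi-likelihood test). CLDN11, known from myelin and the testis barrier, had 11 counts in each wild-type library and 0 in the knockout, at least 30.4-fold lower with the knockout sum set to 3 (adjusted p = 4.01e-09, edgeR). CLDN3 rose from 5.26 ± 0.0606 CPM (SD, n = 2) to 7.66 ± 0.296 CPM (SD, n = 3), or by 0.54 on the log2 scale with an SE of 0.194 (adjusted p = 0.0122, edgeR). That call was lost with DESeq2 (adjusted p = 0.0739), without wild type replicate 1 (adjusted p = 0.0839, edgeR) or 2 (adjusted p = 0.064, edgeR), with thinning to equal depth and with total counts as the scale. CLDN11 had too few counts to be tested without either wild-type library. CLDN12 stood at 15.5 CPM in both groups (adjusted p = 0.996, edgeR).

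**Figure D2:**
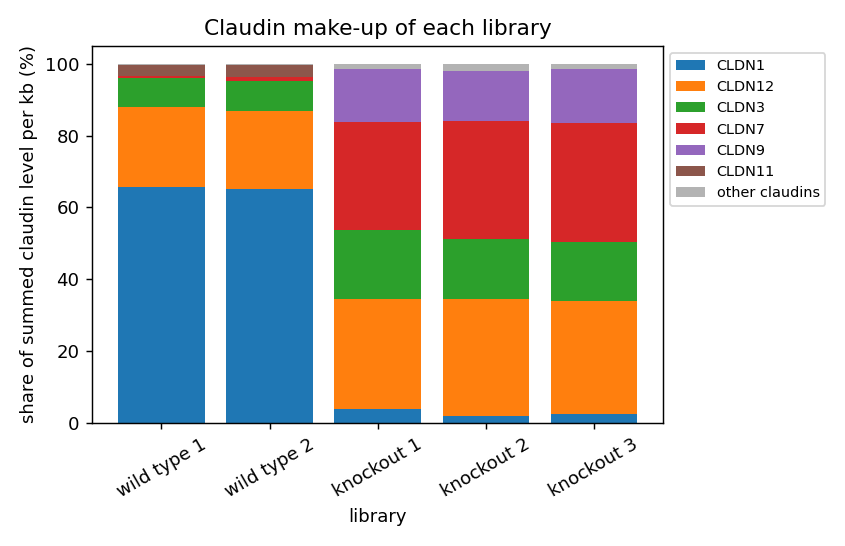
Share of each claudin in the summed claudin level of a library, in percent, from CPM per kilobase of coding sequence. Each bar is 1 library and adds up to all 12 claudin genes with a row. CLDN1 fills about 65.5% of the wild-type bars and 2.75% of the knockout bars, where CLDN12, CLDN7, CLDN3 and CLDN9 make up most of the rest.

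The stretches before the starts of VIM, CLDN1 and CLDN7 are shown because these are members with some of the widest differences, in both directions, and because the E-box letters CACCTG, read as CAGGTG on the other strand, which ZEB and SNAI repressors bind, can be looked for in them. Sequences are from RefSeq (GRCh38.p14), 5′ to 3′ on the gene's strand, and capitals mark an E-box on either strand. No other motif was searched. Windows of 6 of the 9 members were searched. EPCAM and KRT18 had no entry, and the ESRP1 window was left out and is not reported here.
VIM, chr10:17227991-17228240, plus strand: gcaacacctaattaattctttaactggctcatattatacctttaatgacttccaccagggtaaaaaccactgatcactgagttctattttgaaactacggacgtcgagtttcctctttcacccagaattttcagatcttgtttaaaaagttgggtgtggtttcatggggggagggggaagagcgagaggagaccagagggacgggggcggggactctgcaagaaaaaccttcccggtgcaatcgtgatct
CLDN1, chr3:190322476-190322696, minus strand: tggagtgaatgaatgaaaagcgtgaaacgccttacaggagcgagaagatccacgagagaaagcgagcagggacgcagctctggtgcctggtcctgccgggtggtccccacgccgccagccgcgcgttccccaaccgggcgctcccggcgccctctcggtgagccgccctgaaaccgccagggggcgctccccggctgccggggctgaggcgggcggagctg
CLDN7, chr17:7263214-7263463, minus strand: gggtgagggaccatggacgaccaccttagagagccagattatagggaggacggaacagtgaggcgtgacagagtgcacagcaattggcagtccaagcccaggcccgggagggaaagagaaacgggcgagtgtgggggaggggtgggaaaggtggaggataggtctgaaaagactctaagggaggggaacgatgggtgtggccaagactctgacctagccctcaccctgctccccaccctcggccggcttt
CLDN7, second listed start, chr17:7262479-7262508, minus strand: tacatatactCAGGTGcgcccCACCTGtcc

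No E-box of these letters lay in the 250 bases before the listed starts of VIM, CLDN1, ZEB2 and POF1B, nor in those before the CLDN7 start that the deposited transcript uses. The listed start of ZEB2 lies 276 bases inside the deposited transcript, so the bases before that transcript were not searched. Listed starts of POF1B and CLDN1 lie 78 and 29 bases inside theirs. RefSeq lists a second CLDN7 start 735 bases downstream, in the first intron of that transcript. The 250 bases before it held 4 E-boxes, 2 of them in the 30 bases shown. Of 35116 windows of this length in the RefSeq table, 17.5% held at least 1 E-box and 0.122% held at least 4. ZEB1 has several listed starts, and windows before them held 0, 1 or 2, where 2.53% of all windows held at least 2. CpG dinucleotides in these windows of 250 bases, written as observed over expected, stood at 0.948 before CLDN1, 0.423 and 0.806 before the upstream and downstream CLDN7 starts, 0.613 before VIM and 0.199 before POF1B, where the median of all windows was 0.558. A match to these letters is a description and not a site of binding.

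POF1B (ENST00000262753, chromosome X, 85277396 to 85379743, minus strand), an actin-binding protein of epithelial tight junctions, held 308 and 247 counts in wild-type cells and 18, 25 and 29 in the knockout. Its levels were 51.9 and 45.2 CPM against 1.19, 1.54 and 1.84 CPM. Both wild-type libraries were above every knockout library, and the counting interval of the wild-type excess was 24.9 to 41.4.

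VIM (ENST00000544301, chromosome 10, 17228259 to 17237592, plus strand), the vimentin gene, held 715 and 753 counts in wild-type cells and 15908, 17237 and 17279 in the knockout. Its levels were 120.4 and 138 CPM against 1050.4, 1059 and 1096 CPM. The 3 knockout libraries lay close together and far above the wild type, by 8.30-fold over summed counts (95% counting interval 7.88 to 8.75). Among 13951 genes with a coding length, VIM ranked 1745 by level per kilobase in wild-type cells and 284 in the knockout. Antisense genes overlap its coding exons, VIM-AS1 over 563 and AL133415.1 over 342 of 1398 coding bases, and the use of strand in counting was not given in the sources used here.

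KRT18 (ENST00000388837, chromosome 12, 52948871 to 52952900, plus strand), the type I keratin of simple epithelia that pairs with KRT8, held 887 and 769 counts in wild-type cells and 2574, 2810 and 2665 in the knockout. Its levels were 149 and 141 CPM against 170, 173 and 169 CPM. All knockout libraries were slightly higher on this scale, with a log2 ratio of 0.23. With total counts as the scale the log2 ratio was -0.04, so its direction is uncertain.

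KRT18 counts are uncertain for a second reason, its many processed pseudogenes. Of the 1263 windows of 28 bases in its coding sequence, 976 (77.3%) occurred in a transcript of another GENCODE gene, among 72 genes of which 70 were pseudogenes. A pair of windows shows the contrast, numbered from the first coding base.
KRT18, bases 946 to 973, found in 25 other genes: ctgaaggccagcttggagaacagcctga
KRT18, bases 91 to 118, found in 0 other genes: agcgcggccagcgtctatgcaggcgctg

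A footprint from the first of these could be placed on many loci, and the treatment of such reads was not given in the sources used here. Annotated KRT8 exons also overlap 375 of the 1290 coding bases of KRT18 on the opposite strand. The same share of windows was 32.3% for CLDN7, where all 196 shared windows of 606 occurred in AC003688.1, an overlapping gene on the same strand, 11.6% for EPCAM, 6.58% for ZEB2, 0.948% for VIM and 0.149% for ZEB1. It was 0 for ESRP1, CLDN1 and POF1B. The members with large differences, CLDN7 aside, thus had coding sequences that were nearly unique at footprint length.

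The order of the members by level per kilobase differed between the groups. In the wild type it ran KRT18 (112 ± 4.75 CPM per kilobase; SD, n = 2), VIM (92.3 ± 8.79), CLDN1 (63.3 ± 0.383), POF1B (27.5 ± 2.67), ESRP1 (25.0 ± 0.595), ZEB1 (8.29 ± 0.139), ZEB2 (5.30 ± 0.540), EPCAM (1.40 ± 0.214) and CLDN7 (0.844 ± 0.441). POF1B and ESRP1 differed by 2.42 CPM per kilobase, less than the SD of POF1B. In the knockout it ran VIM (764 ± 17.4 CPM per kilobase; SD, n = 3), KRT18 (132 ± 1.44), CLDN7 (21.5 ± 2.0), ZEB1 (8.51 ± 0.809), ESRP1 (4.49 ± 0.362), ZEB2 (2.70 ± 0.0979), CLDN1 (1.82 ± 0.603), EPCAM (1.68 ± 0.310) and POF1B (0.861 ± 0.184). The ranges of CLDN1 and EPCAM overlapped there. CLDN7 stood last of the members in wild-type cells and the third in the knockout.

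For several members the spread between libraries of a group was close to that of counting. In the knockout the coefficient of variation was 33.1% for CLDN1, 21.4% for POF1B and 18.4% for EPCAM, where counting alone gives 23.6%, 20.4% and 20%. Members with more counts varied less, with 8.08% for ESRP1 (counting 8.33%) and 1.09% for KRT18 (counting 1.93%). VIM stood above counting in both groups, at 9.51% in wild-type cells (counting 3.69%) and 2.28% in the knockout (counting 0.771%). So did ZEB1 in the knockout, at 9.50% (counting 4.71%), and POF1B in wild-type cells, at 9.72% (counting 6.0%). Other members stood below counting in wild-type cells, among them CLDN1 (0.605%, counting 6.62%), ESRP1 (2.37%, counting 5.85%) and ZEB1 (1.68%, counting 7.92%). A spread from so few libraries is itself uncertain, and none of these differences from counting was tested.

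As a description with no test, VIM and KRT18 took 37.6% ± 3.08 and 45.8% ± 2.55 of the summed level per kilobase of 31 cytoplasmic intermediate filament genes in wild-type cells (SD, n = 2). In the knockout VIM took 79.1% ± 0.429 and KRT18 13.7% ± 0.336 (SD, n = 3). Per kilobase, VIM stood at 0.824 ± 0.113 times KRT18 in wild-type cells and at 5.78 ± 0.175 times in the knockout. The summed level was 245 ± 3.27 CPM per kilobase in wild-type cells and 967 ± 16.8 in the knockout, and VIM made up most of the difference. KRT8, the partner of KRT18, had no row and is in none of these shares or sums. They therefore cover the genes with a row and not the whole filament make-up of the cells.

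Of 12 other intermediate filament genes, all with a row and 7 tested, 3 rose (42.9%) and 2 fell (28.6%), beside 37.8% and 36.6% of all genes. Their median log2 fold change was 0.02, beside 0.0161 over all genes. NES, the filament protein of neural progenitors, rose from 75.7 ± 3.62 to 299.9 ± 2.41 CPM (log2 fold change 1.98). The lamins LMNB1 (1.01) and LMNA (0.39), which line the nucleus, rose too. SYNM fell from 19.7 ± 0.538 to 2.77 ± 0.736 CPM (-2.82) and the neuronal filament gene INA from 13.4 ± 1.08 to 3.74 ± 0.754 CPM (-1.84). Of the 20 other keratins with a row, 13 of them on the list used here, 3 had enough counts to be tested. KRT10, a keratin of differentiating skin layers, fell from 94 and 83 counts to 7, 7 and 2 (45.8-fold by summed counts, 95% counting interval 27.4 to 81.8). KRT7 (2 and 2 counts against 28, 19 and 31) and KRT1 (1 and 1 against 29, 10 and 12) rose, and the ratio of KRT1, 6.16, has a counting interval of 1.62 to 52.3. The call of KRT1 was lost without wild type replicate 1 (adjusted p = 0.0835, edgeR) and without wild type replicate 2 (adjusted p = 0.0667, edgeR), and no keratin was called higher with the knockout thinned to the wild-type depth. Without any 1 of the 5 libraries, 1 keratin was called higher in place of 2.

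**Figure D3:**
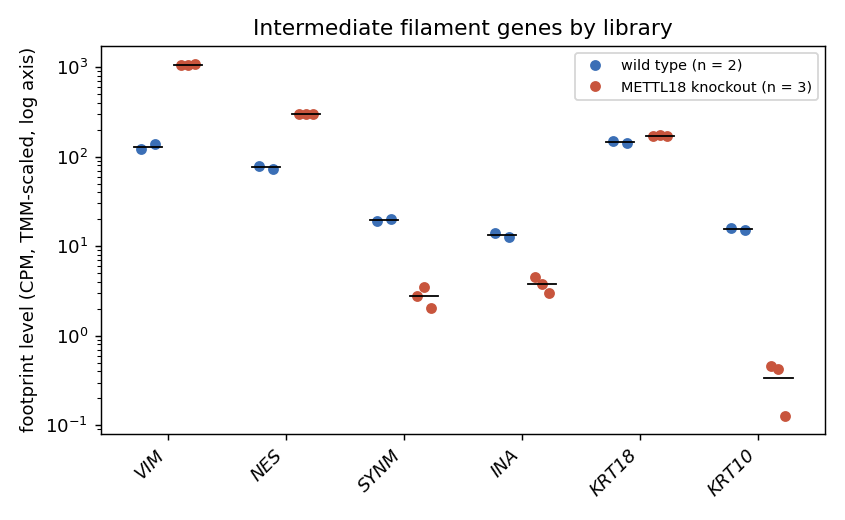
Footprint level of intermediate filament genes in each library, in TMM-scaled CPM on a log axis, with wild type in blue (n = 2), METTL18 knockout in red (n = 3) and group means as black lines. VIM and NES are higher in the knockout, SYNM, INA and KRT10 lower, and KRT18 differs by 1.18-fold.

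Among transcription factors of EMT other than ZEB1 and ZEB2, no fall was called. Of 15 listed, 12 had a row and 7 were tested. Among them 3 rose (42.9%), 4 did not pass and none fell, beside 37.8% higher and 36.6% lower of all genes. The median log2 fold change was 0.11. At an unadjusted p under 0.05 and by DESeq2, none of the 7 was called lower either. SNAI1 (Snail), an E-box repressor like the ZEB proteins, rose from 10 and 13 counts to 55, 61 and 65 (log2 fold change 0.92), and TWIST2 rose by 0.45. TWIST1 (-0.41), FOXC1 (-0.22), TCF3 (0.11) and TCF4 (-0.01) did not pass. SNAI1 was no longer called with total counts as the scale (0.65, adjusted p = 0.0507, edgeR) or without wild type replicate 1 (0.69). TWIST2 was lost with DESeq2 (adjusted p = 0.142) and with the knockout thinned to the wild-type depth (adjusted p = 0.209, edgeR). It was also lost with total counts as the scale (adjusted p = 0.417, edgeR) and without wild type replicate 1 (0.32) or 2 (0.57). Without METTL18 knockout replicate 1 (adjusted p = 0.0708, edgeR) or 2 (adjusted p = 0.0514, edgeR) TWIST2 did not pass either. Neither SNAI1 nor TWIST2 was called with a fold of at least 1.5 required. With total counts as the scale 1 of the 7 was called higher and 4 lower, without wild type replicate 1 it was 1 higher, and without METTL18 knockout replicate 1 it was 1 lower.

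**Figure D4:**
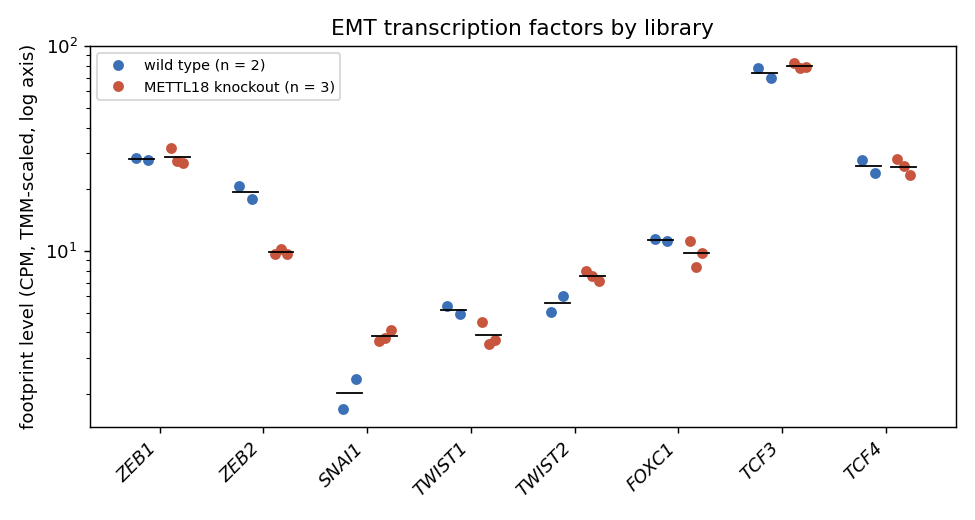
Footprint level of ZEB1, ZEB2, SNAI1, TWIST1, TWIST2, FOXC1, TCF3 and TCF4 in each library, in TMM-scaled CPM on a log axis, with wild type in blue (n = 2), METTL18 knockout in red (n = 3) and group means as black lines. ZEB2 is lower and SNAI1 is higher in every knockout library, while the points of ZEB1 and TCF4 overlap.

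Epithelial transcription factors and splicing regulators other than ESRP1 went both ways. Of 17 listed, 14 had a row and 11 were tested. Among them 4 rose (36.4%), 3 fell (27.3%) and 4 did not pass (median 0.48), beside 37.8% and 36.6% of all genes. KLF4, a factor of epithelial barriers and of pluripotency, rose from 32.7 ± 1.80 to 293 ± 13.1 CPM (3.16), TFAP2C by 1.37 and KLF5 by 0.75. OVOL2, a repressor of ZEB1 in epithelia, fell from 18 and 13 counts to 11, 15 and 11 in the deeper knockout (-1.78), GRHL3 fell (-2.96, from 11 and 3 counts to 1, 4 and 2), and QKI, a splicing factor tied to the mesenchymal pattern, fell by 0.80 on the log2 scale. GRHL3 had too few counts to be tested with the knockout thinned, without wild type replicate 1 or without any 1 of the knockout libraries. RBFOX2, another splicing factor of that kind, stood at 49.1 ± 0.649 and 49.9 ± 0.857 CPM (adjusted p = 0.795, edgeR).

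The tested junction genes beyond the members were mostly called higher at adherens junctions and split elsewhere. Of 17 adherens junction genes, 10 had a row and 9 were tested. Of these, 7 rose (77.8%), 2 did not pass and none fell, beside 37.8% higher and 36.6% lower of all genes. Their median was 1.09, and the list was chosen with earlier results of these data known. All 9 tested genes had a log2 fold change above 0, so in this fit no threshold could call one lower. DESeq2 called none lower, but 2 were called lower with total counts as the scale. E-cadherin (CDH1) had 1 count in wild-type cells and 582 in the knockout, which gives a ratio of 141 (95% counting interval 25.2 to 5566). P-cadherin (CDH3) rose from 2.43 ± 0.849 to 22.8 ± 0.292 CPM (3.21), the actin linkers VCL from 278 ± 13.1 to 836 ± 9.86 CPM (1.59) and LIMA1 from 32.2 ± 1.52 to 172 ± 4.2 CPM (2.41). Of 29 other tight junction genes, 20 had a row and 14 were tested. Among them 6 rose (42.9%), 4 fell (28.6%) and 4 did not pass (median 0.25, the same with genes at 0 set to their bound). The adhesion protein F11R (1.08) rose, JAM2 (-1.32) and TJP3 (-0.75) fell, and TJP1, the scaffold ZO-1, stood at 187 ± 5.14 and 193 ± 1.71 CPM (adjusted p = 0.398, edgeR). Without wild type replicate 2, 1 gene of this list was called lower in place of 4, and TJP3 was among those lost (adjusted p = 0.121, edgeR).

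Of 15 desmosome genes, 13 had a row and 8 were tested. Among them 2 rose (25%), 4 fell (50%) and 2 did not pass (median -0.12), beside 37.8% and 36.6% of all genes. DSC2, a desmosomal cadherin, fell from 91.3 ± 8.29 to 33.8 ± 0.131 CPM (-1.43), and PKP4 (-1.21) and PPL (-1.05) fell. PERP (0.41) and PKP2 (0.36) rose, though neither passed with total counts as the scale, and PKP2 did not pass without wild type replicate 1 (adjusted p = 0.0782, edgeR). Desmoplakin (DSP) stood at 367 ± 1.65 and 373 ± 10.9 CPM (adjusted p = 0.677, edgeR). Of 18 other epithelial surface genes, 14 had a row and 9 were tested. Among them 3 rose (33.3%), 3 fell (33.3%) and 3 did not pass (median 0.04). Besides CDH1, the protease inhibitor SPINT2 (0.93) and CD24 (0.92) rose, while SPINT1 (-0.78) and the integrins ITGB4 (-1.74) and ITGA6 (-0.57), which anchor cells to the basement membrane, fell.

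Mesenchymal genes other than VIM were also split. Of 28, 22 had a row and 15 were tested. Among them 9 rose (60%), 6 fell (40%) and none missed the threshold (median 0.37), beside 37.8% and 36.6% of all genes. The tropomyosin TPM2 had 3 and 2 counts in wild-type cells and 566, 654 and 533 in the knockout, which gives a ratio of 84.7 (95% counting interval 36.2 to 261), and TPM1 rose from 106 ± 6.94 to 333 ± 21.1 CPM (1.65). CTGF, a secreted matrix protein, rose by 1.40. The collagen COL5A1 fell from 34 and 38 counts to 0, 0 and 1, a ratio of 298 (95% counting interval 51.8 to 11926). The collagen crosslinker LOXL2 fell from 23.9 ± 2.69 to 3.57 ± 0.508 CPM (-2.74) and the protease MMP2 from 7.95 ± 0.898 to 0.405 ± 0.113 CPM (-4.27). N-cadherin (CDH2) stood at 127 ± 2.70 CPM in wild-type cells and 182 ± 4.34 CPM in the knockout and fibronectin (FN1) at 160.3 ± 0.969 and 96.3 ± 2.53 CPM, so the first rose (0.51) and the second fell (-0.73).

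Polarity genes and the partners of the ZEB proteins showed no common direction. Of 20 apical-basal polarity genes, 17 had a row and 14 were tested. Among them 7 rose (50%) and 7 fell (50%), with a median of -0.08, beside 37.8% and 36.6% of all genes. Ezrin (EZR) rose from 339 ± 6.27 to 755 ± 25.6 CPM (1.15), its partner SLC9A3R1 by 1.75 and LIN7C by 0.77. DLG1 fell from 181 ± 5.76 to 74.2 ± 3.47 CPM (-1.29), and STK11 (-1.05) and LLGL1 (-0.57) fell. Of 22 genes of the TGF-beta pathway and of ZEB corepressors, 21 had a row and all 21 were tested. Among them 4 rose (19.0%), 6 fell (28.6%) and 11 did not pass (median -0.04). With total counts as the scale, 3 were called higher and 12 lower. CTBP1, a corepressor that ZEB proteins recruit, fell from 70.8 ± 3.16 to 32.8 ± 1.66 CPM (-1.11), and so did HDAC1 (-0.72) and HDAC2 (-0.28). RCOR1 (1.08), KDM1A (0.45) and SKIL (0.65) rose. The ligand TGFB1 stood at 26.0 ± 0.333 and 24.7 ± 0.861 CPM (adjusted p = 0.494, edgeR), but was called lower with total counts as the scale (-0.349, adjusted p = 0.00237, edgeR).

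Over all 11 lists without the members, 117 genes were tested; 49 rose (41.9%) and 36 fell (30.8%), beside 37.8% and 36.6% of all genes. With total counts as the scale the balance turned, with 38 called higher and 53 lower. The median log2 fold change was 0.11, beside 0.0161. The groups did not overlap for 93 of these genes (79.5%), beside 83.5% of all genes.

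**Figure D5:**
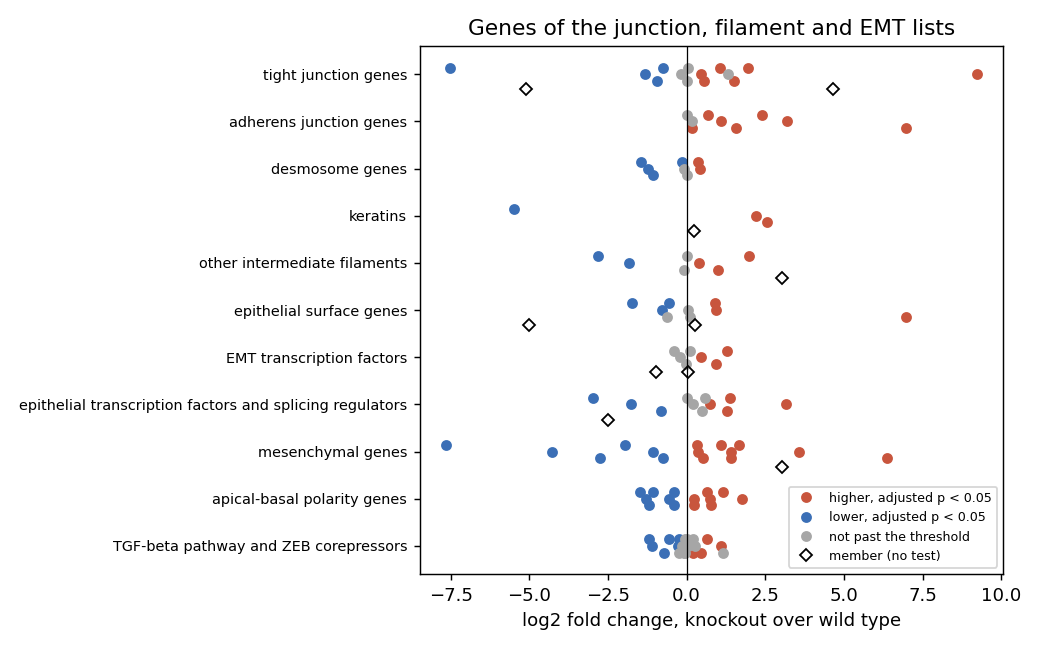
Log2 fold change, knockout over wild type, of the tested genes of the 11 lists. Filled points are genes other than the members, red for higher and blue for lower at an adjusted p under 0.05 and grey for the rest, and open diamonds are members, shown with no test. Points lie on both sides of 0 in every list except the adherens junction genes, where all 9 are above 0; fitted values of CLDN9 and CLDN11, which had 0 counts in 1 group, depend on the prior count.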

How the data were processed

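The authors deposited raw counts of ribosome footprints per Ensembl transcript. Per the submitters' processing notes, Bowtie and hg38 were used; the annotation release, counting tool, strand setting and handling of multi-mapping reads were not given in the sources used here. Per the labels' protocols, footprints of 28 to 32 bases were selected from RNase I-digested monosomes.

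Counts were tested with edgeR 4.0.16 (limma 3.58.1, R 4.3.3; robust quasi-likelihood fit, TMM, filterByExpr at its minimum count of 10 and minimum total of 15, group as the sole term) and Benjamini-Hochberg adjustment over all 11335 genes, with a threshold of 0.05. The test was checked on simulated data in which few genes differed. Most genes were called in these libraries, so that check does not cover their scaling. Values are mean ± SD over a group's libraries. Member ratios are ratios of mean CPM, or of summed counts over TMM library sizes where a counting interval is given. Floors of 3 counts (0.263 CPM in the wild type, 0.0636 CPM in the knockout) and exact 95% intervals cover counting error only, since use of the random adapter bases to remove duplicates is not given. GENCODE release 29 gave coordinates and coding lengths for 13960 rows, and windows of 28 bases were searched in all its transcripts. RefSeq (GRCh38.p14) gave promoters.

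The members and the 11 gene lists were chosen with earlier results of these data known. Genes named are the members, from each list up to 3 higher and 3 lower genes by smallest adjusted p, any claudin, keratin or EMT factor, and METTL18; FN1, CDH2, TJP1, DSP, RBFOX2, ESRP2 and TGFB1, and the cell type markers GATA2, CD33 and CD34, were added after their values were seen. Some genes that this rule selects are not reported here by name, though list counts include them. Alternatives were RLE and total-count scaling, DESeq2 1.42.0, no low-count filter, a required fold of 1.5, thinning to equal depth, the replicate number as a block, each library left out, and transcript length in place of coding length. Python 3.11.15 and matplotlib 3.10.9 were used for tables and figures.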

Additional observations from a re-analysis of the deposited data

How the results depend on the processing

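With total counts as the scale, 3 members had the opposite sign (log2 ratio -0.23 for ZEB1, -0.0096 for EPCAM, -0.038 for KRT18), and VIM (2.78), ESRP1 (-2.75) and ZEB2 (-1.24) moved by more than the spread between libraries. ZEB1 was also negative with the knockout thinned to the wild-type depth (-0.047) and without METTL18 knockout replicate 1, where leaving out each library gave -0.048 to 0.076. The cause was not tested. The other 64 of 72 member values kept their sign and moved by less than that spread. With transcript length in place of coding length, CLDN1 stood 5 and ESRP1 3 in the wild-type order, and CLDN1 9, EPCAM 7 and POF1B 8 in the knockout order. With a fold of at least 1.5 required, a stricter test by construction, 2011 of all genes were called higher and 2129 lower, and 31 listed genes higher. Leaving out each library gave 3802 to 4180 higher and 3589 to 4104 lower genes, and 42 to 50 higher and 31 to 36 lower listed genes. Of 312 counts of calls under alternatives, 285 stayed within 1.5 times the reported count. For 69 genes that the naming rule selects or the text names there were 816 such values: 33, of 14 genes, lost their call, 6 gained one and 4 turned, all 4 with total counts as the scale (TCF3 -0.16, RBFOX2 -0.25, TJP1 -0.23, DSP -0.25). In 12 further cases (CLDN11, KRT7, KRT1, GRHL3) the gene had too few counts to be tested. Replicate numbers do not pair the libraries (correlations of deviations 0.00352 and 0.0191). With the number as a replicate block, 8476 genes were called in place of 8431, with 8273 shared, and 4322 were higher and 4154 lower. Wild-type depth limits CLDN7 (6 counts) and EPCAM (15 counts).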
